A study of Rattus norvegicus with 14 samples.

Results

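Toll-like receptors and the NF-kB proteins they switch on were read out as mRNA in rat blood cells through 9 genes: the receptors Tlr2 and Tlr4, the adaptor Myd88, the NF-kB subunits Nfkb1, Nfkb2, Rela and Relb, and the feedback inhibitors Nfkbia and Tnfaip3. The members were taken by gene symbol, as the probe sets that the array's annotation assigns to that symbol alone. Each of the 9 genes had 1 probe set, so the 9 probe sets stood against 31042 on the array without its control rows.

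The arrays measured peripheral blood mononuclear cells (PBMC, the lymphocytes and monocytes that stay on top of a Ficoll gradient) of female Wistar rats, 1 array a sample, 14 arrays in all. NOCIA_B are healthy rats before therapy, called NORA in the labels (n = 3, day 0), and CIA_B are rats with collagen-induced arthritis before therapy, called RA (n = 2, day 0). Collagen-induced arthritis is a model of rheumatoid arthritis in which immunization with type II collagen inflames the joints. The collagen was injected as an emulsion with Freund's adjuvant. NOCIAMS_A (HAP) are healthy rats after 34 days of acupuncture, given as a thin needle that is inserted and rotated (n = 3). MS_A (AP) are arthritic rats after 34 days of the same needle stimulation (n = 3), and MTXMS_A (MTXAP) are arthritic rats after 34 days of methotrexate injections together with the needle (n = 3). Rats were killed at sampling, so no rat was followed over time, and whether blood was pooled is not given in the sources used here. No group without needle stimulation was sampled at day 34, so time and stimulation cannot be told apart, nor can methotrexate be seen without the needle.

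Toll-like receptors sit on monocytes and other innate cells and bind microbial products and products of damaged tissue. Most of them signal through the adaptor MyD88 to kinases that destroy IkB proteins, which frees NF-kB dimers to enter the nucleus and switch on inflammatory genes. Among those targets are the brakes of the pathway: IkB-alpha, encoded by Nfkbia, carries NF-kB back out of the nucleus, and A20, encoded by Tnfaip3, removes the ubiquitin chains on which the kinases assemble. In arthritis the pathway is known for driving cytokine production in monocytes and synovial cells.

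Because several members are known targets of NF-kB, their promoters were searched for the kappaB consensus, the 10-base motif that NF-kB dimers bind, on either strand. Windows ran from 250 bases before to 50 bases after the start of 1 RefSeq transcript a gene (build GRCr8), and 8 of the 9 members had one. The motif was present in 5 of the 8, against 1400 of 33469 windows over all genes (4.18%). Below are the 4 windows of the subunit and inhibitor genes that held it, in the direction of the gene, with the matching bases in capitals. They lie at chr2:226805413-226805712 (minus strand), chr1:255108124-255108423 (plus strand), chr6:78597023-78597322 (minus strand) and chr1:15543930-15544229 (minus strand). The starts used for all 5 genes with a match lie inside the annotated span of the gene.
Nfkb1: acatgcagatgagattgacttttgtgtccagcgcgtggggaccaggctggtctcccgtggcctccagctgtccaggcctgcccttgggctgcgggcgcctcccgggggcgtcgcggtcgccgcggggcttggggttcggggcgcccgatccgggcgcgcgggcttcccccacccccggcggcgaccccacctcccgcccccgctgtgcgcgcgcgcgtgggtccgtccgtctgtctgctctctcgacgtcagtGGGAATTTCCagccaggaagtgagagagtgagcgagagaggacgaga
Nfkb2: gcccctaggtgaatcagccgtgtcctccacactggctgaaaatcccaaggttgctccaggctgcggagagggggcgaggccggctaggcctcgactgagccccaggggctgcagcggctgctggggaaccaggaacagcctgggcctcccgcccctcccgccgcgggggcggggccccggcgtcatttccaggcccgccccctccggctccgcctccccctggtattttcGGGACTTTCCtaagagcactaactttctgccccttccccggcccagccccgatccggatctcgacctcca
Nfkbia: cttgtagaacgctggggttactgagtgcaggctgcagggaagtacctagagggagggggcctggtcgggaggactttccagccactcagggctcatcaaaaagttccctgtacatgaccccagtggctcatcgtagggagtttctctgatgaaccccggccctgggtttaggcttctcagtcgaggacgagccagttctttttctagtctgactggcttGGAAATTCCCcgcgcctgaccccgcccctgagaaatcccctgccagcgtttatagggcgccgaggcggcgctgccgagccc
Tnfaip3: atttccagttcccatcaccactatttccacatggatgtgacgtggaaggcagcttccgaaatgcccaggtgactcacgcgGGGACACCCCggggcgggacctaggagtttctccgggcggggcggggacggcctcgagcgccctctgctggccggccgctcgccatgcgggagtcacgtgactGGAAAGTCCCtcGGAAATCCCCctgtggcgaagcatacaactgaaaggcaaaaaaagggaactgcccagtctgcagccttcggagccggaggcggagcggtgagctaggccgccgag

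Nfkb2 and Nfkbia each held 1 match close to the start, at -20 to -11 and -31 to -22 from it. Nfkb1 had its match just behind the start, at 4 to 13. Tnfaip3 held 3 matches, with first bases at -170, -67 and -55. Tlr2 had 2 overlapping matches, GGGGAATTCC at -206 to -197 and the palindrome GGGAATTCCC at -205 to -196 (chromosome 2, 171504753 to 171504763, minus strand). The windows of Tlr4, Myd88 and Rela held none of these letters. Of the other pathway genes listed below, 4 of 6 subunit and IkB genes (Rel, Nfkbie, Nfkbiz and Bcl3) and 6 of 16 target genes held a match. So did 3 of 13 adaptor and kinase genes, 2 of 13 negative regulators and 0 of 12 receptor and coreceptor genes. A match is a description of the letters, and binding was not measured.

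Signals are Affymetrix MAS5 values with each array scaled to the same trimmed mean of 500, taken here as log2. Only 8 members entered the tests, which were run with limma over the 18515 probe sets above their array's median on at least 2 of 14 arrays. The PBMC label was checked against markers, and signals were high for Lyz2 (lowest 29092), a monocyte and myeloid enzyme, Cd14 (lowest 1042), Cd3e of T cells (lowest 3763) and Cd79b of B cells (lowest 721.5). Other monocyte markers were dim, such as Ms4a7 (9.81 to 130) and Ccr2 (lowest 27.7). Pf4, a platelet chemokine, was also high on every array (lowest 33174). 2 arrays stood apart: NOCIA_B replicate 3, whose mean correlation with the other arrays was 0.855, and MTXMS_A replicate 3 at 0.882, while the rest lay between 0.912 and 0.934. Spike-in signal of NOCIA_B replicate 3 was 1.88 times the median array, and the 3'/5' signal ratio of actin, a measure of RNA integrity, was highest in MTXMS_A replicate 3 at 5.01. These arrays were also the extremes in erythroid marker score, at 2.39 (NOCIA_B replicate 3) and -4.75 (MTXMS_A replicate 3), with the other 12 arrays between -0.95 and 1.00. The actin ratio moved with the groups, at 1.97 to 3.01 in NOCIA_B, 2.77 to 2.83 in CIA_B, 3.35 to 4.36 in NOCIAMS_A, 2.44 to 2.69 in MS_A and 3.13 to 5.01 in MTXMS_A. It thus stood higher without overlap in NOCIAMS_A against NOCIA_B and in MTXMS_A against MS_A and CIA_B. In that order 8, 6 and 6 of 8 members were above 0, against 59.6%, 49.4% and 48.1% of probe sets. In MS_A against CIA_B and against NOCIAMS_A the ratio stood lower without overlap. There 2 of 8 members were above 0, against 49.2% and 44.6% of probe sets. In CIA_B against NOCIA_B the ratio overlapped, and all 8 members were above 0, against 55.5% of probe sets. The part of the actin ratio in the members' values was not tested.

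Across the 6 comparisons no member and no other probe set passed a Benjamini-Hochberg adjusted p of 0.05 in limma. What follows therefore describes levels and their spread. Tlr2 was highest in MS_A, and the subunits and inhibitors ran lowest in NOCIA_B or MS_A and highest in MTXMS_A, except that Rela was about as high in CIA_B.

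**Figure D1:**
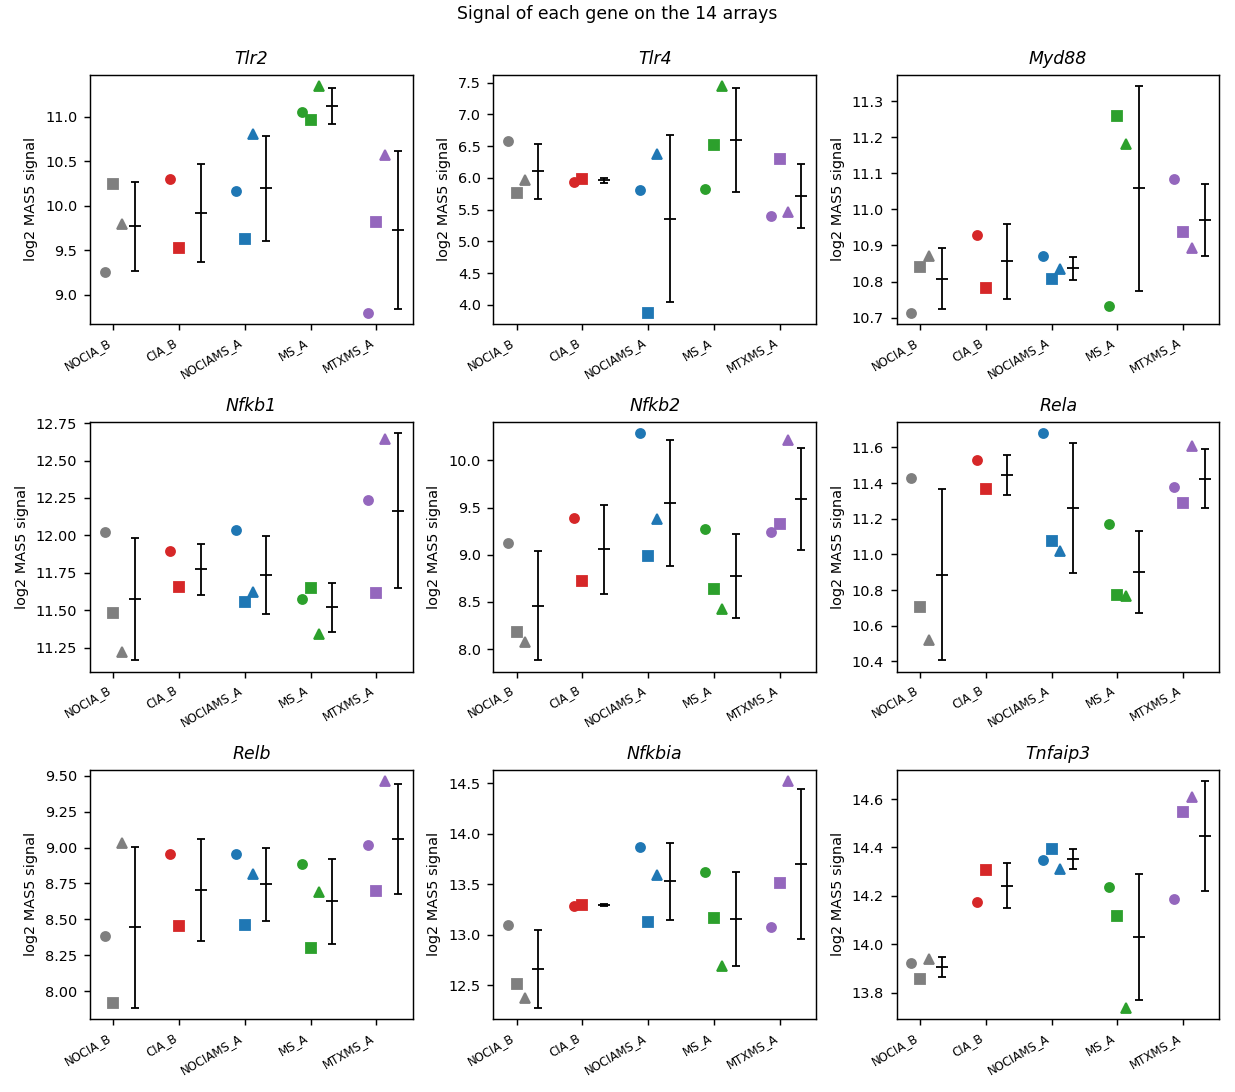
Log2 MAS5 signal (y axis) of each of the 9 genes in the 5 groups (x axis). Each symbol is 1 array (circle, square and triangle for replicates 1, 2 and 3), and the black bar is the group mean with its SD; y axes differ between genes and do not start at 0. All 3 MS_A arrays lie above every other array for Tlr2, and the 3 NOCIA_B arrays of Tnfaip3 lie together at the bottom with 1 MS_A array below them.

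Tlr2, the receptor for bacterial lipoproteins, had log2 signals of 9.26, 10.25 and 9.80 in NOCIA_B and of 10.31 and 9.53 in CIA_B. In NOCIAMS_A it read 10.17, 9.62 and 10.80, in MS_A 11.05, 10.97 and 11.35, and in MTXMS_A 8.80, 9.82 and 10.57. The 3 MS_A arrays were the 3 highest of the 14 and met no other group's range, while the other groups overlapped each other. Its group means were 11.12 ± 0.20 (SD, n = 3) in MS_A, 10.20 ± 0.59 (n = 3) in NOCIAMS_A, 9.92 ± 0.55 (n = 2) in CIA_B, 9.77 ± 0.50 (n = 3) in NOCIA_B and 9.73 ± 0.89 (n = 3) in MTXMS_A. In that order only the step from MS_A to NOCIAMS_A was larger than the larger of the 2 SDs.

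Tlr4, the receptor for bacterial lipopolysaccharide, was dim. It was above its array's median signal on 1 of 14 arrays and so was not tested. Its log2 signals ran from 3.88 in NOCIAMS_A replicate 2 to 7.45 in MS_A replicate 3. Neighbouring groups overlapped throughout, with means from 5.36 ± 1.31 (n = 3) in NOCIAMS_A to 6.59 ± 0.82 (n = 3) in MS_A.

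Myd88, the adaptor, hardly varied. Its signals lay between 10.71 and 10.93 on all 5 arrays before therapy and between 10.81 and 10.87 in NOCIAMS_A. MS_A read 10.73, 11.26 and 11.18 and MTXMS_A 11.08, 10.94 and 10.89, so 2 of the 3 MS_A arrays were the highest of all and the other was among the lowest. Group means ran only from 10.81 in NOCIA_B to 11.06 in MS_A, and neighbouring groups overlapped.

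Nfkb2, which encodes the p100 precursor of the alternative NF-kB pathway, read 9.13, 8.18 and 8.08 in NOCIA_B and 9.39 and 8.72 in CIA_B. It read 10.29, 8.99 and 9.38 in NOCIAMS_A, 9.27, 8.64 and 8.42 in MS_A, and 9.24, 9.33 and 10.22 in MTXMS_A. The highest arrays were NOCIAMS_A replicate 1 and MTXMS_A replicate 3, and the lowest were NOCIA_B replicates 2 and 3. Means went from 9.59 ± 0.54 in MTXMS_A and 9.55 ± 0.67 in NOCIAMS_A to 8.46 ± 0.58 in NOCIA_B (n = 3 each), with every pair of neighbours in the order overlapping.

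Nfkb1, the p105 precursor of the p50 subunit, had its lowest and highest signals at 11.22 and 12.64, in NOCIA_B replicate 3 and MTXMS_A replicate 3. Its MTXMS_A arrays read 12.24, 11.62 and 12.64 against 11.57, 11.65 and 11.34 in MS_A. Rela, the transactivating p65 subunit, read 11.53 and 11.37 in CIA_B, 11.38, 11.29 and 11.61 in MTXMS_A, 11.17, 10.77 and 10.77 in MS_A, and 11.43, 10.71 and 10.52 in NOCIA_B. The MS_A arrays of Rela thus lay below all CIA_B and MTXMS_A arrays, and NOCIA_B held the 2 lowest arrays of all and 1 above every MS_A array. Relb, the partner of the p52 subunit, ran from 7.91 to 9.46 over the arrays, and its group means from 8.44 ± 0.56 in NOCIA_B to 9.06 ± 0.38 in MTXMS_A (n = 3 each) overlapped throughout.

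Nfkbia read 13.10, 12.51 and 12.38 in NOCIA_B, 13.29 and 13.30 in CIA_B, 13.87, 13.12 and 13.60 in NOCIAMS_A, 13.62, 13.16 and 12.69 in MS_A, and 13.07, 13.52 and 14.52 in MTXMS_A. The NOCIA_B arrays lay below all CIA_B and NOCIAMS_A arrays, though by little for NOCIAMS_A replicate 2, and MTXMS_A replicate 3 was far above the rest. Tnfaip3 was the tightest of the inhibitors. It read 13.92, 13.86 and 13.94 in NOCIA_B, 14.18 and 14.31 in CIA_B, 14.35, 14.39 and 14.31 in NOCIAMS_A, 14.24, 14.12 and 13.74 in MS_A, and 14.19, 14.55 and 14.61 in MTXMS_A. Every NOCIA_B array lay below every CIA_B, NOCIAMS_A and MTXMS_A array, and the NOCIAMS_A arrays lay just above the CIA_B arrays.

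The CIA_B against NOCIA_B comparison sets arthritic against healthy rats before therapy. It cannot tell the arthritis apart from the collagen and adjuvant injections that induced it. All 8 tested members had a log2 fold change above 0, with a median of 0.30, where 55.5% of all tested probe sets did and their median was 0.068. The largest were Nfkbia at 0.63 ± 0.42 (SE), Nfkb2 at 0.60 ± 0.47 and Rela at 0.56 ± 0.30. Nfkbia and Tnfaip3 (0.34 ± 0.20) were the 2 members without overlap between groups, in a comparison where 21% of probe sets stood apart in either direction. No member was called (adjusted p from 0.588 in limma) and 0 reached an unadjusted p of 0.05, which 1569 of 18515 probe sets did (8.47%). Platelet marker genes ran the other way, with 11 of 11 below 0 and a median of -1.65, 8 of them at unadjusted p under 0.05. Summed platelet marker signal was 105825 to 148115 in CIA_B and 151937 to 451369 in NOCIA_B. In a fit with the platelet score as a covariate, 4 members turned below 0: Nfkb1 (-0.45), Nfkb2 (-0.35), Nfkbia (-0.17) and Rela (-0.010). Erythroid markers were below 0 in 9 of 9 (median -1.36). Above 0 were T cell markers in 14 of 15 (median 0.34), neutrophil markers in 7 of 8 (median 0.80) and immediate early genes in 11 of 12 (median 0.32). The part of the erythroid, T cell and neutrophil markers was not tested. In bulk samples, fewer cells of a type and less RNA per cell cannot be told apart.

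The MS_A against CIA_B comparison asks how arthritic rats after 34 days of needle stimulation differ from those before therapy. Tlr2 was higher, by 1.21 ± 0.50 on the log2 scale (95% interval 0.12 to 2.30, unadjusted p = 0.0329, adjusted p = 0.616 in limma). It was the 1 member to reach an unadjusted p of 0.05, as 1450 probe sets did (7.83%). Myd88 lay at 0.20 ± 0.20, and the 6 subunit and inhibitor genes were below 0 (2 of 8 members above 0, against 49.2% of probe sets), from -0.077 for Relb to -0.55 ± 0.30 for Rela. Tlr2 stood above, and Rela and Nfkb1 below, without overlap, against 35.9% of all probe sets in either direction. For Nfkb1 the closest arrays were nearly equal. Platelet markers were above 0 in 11 of 11 (median 1.26, 5 at unadjusted p under 0.05), with a summed signal of 189680 to 223243 in MS_A, and T cell markers were below 0 in 12 of 15 (median -0.41, 3 at unadjusted p under 0.05). Monocyte markers were above 0 in 10 of 12 with a median of 0.44 and 0 at unadjusted p under 0.05, and their summed signal was 69290 to 81719 in MS_A and 61890 to 62949 in CIA_B. With the monocyte score as a covariate the Tlr2 difference was 0.78 ± 0.36, and with CIA_B replicate 2 left out it was 0.82. With the platelet score as a covariate the negative values of Nfkb1, Nfkb2, Relb and Nfkbia became 0.27, 0.48, 0.020 and 0.51.

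MTXMS_A against CIA_B sets arthritic rats after methotrexate and stimulation against those before therapy. It shares its CIA_B arrays with the comparison above. Here 6 of 8 members were above 0, against 48.1% of probe sets, led by Nfkb2 at 0.54 ± 0.47, Nfkbia at 0.41 ± 0.42 and Nfkb1 at 0.39 ± 0.32, while Tlr2 was at -0.19 ± 0.50 and Rela at -0.023 ± 0.30. None stood without overlap, against 21.8% of probe sets, and 0 members reached an unadjusted p of 0.05 in limma, against 999 probe sets (5.4%). Without MTXMS_A replicate 3, the Nfkbia value was 0.0022. T cell markers were below 0 in 15 of 15 (median -0.54, 5 at unadjusted p under 0.05 in limma). Platelet markers were above 0 in 11 of 11 (median 0.80). NK cell and neutrophil markers were each below 0 in 6 of 8, erythroid markers in 6 of 9 and monocyte markers in 6 of 12. With the platelet score as a covariate Rela was at 0.35. The part of the T cell, NK cell, neutrophil and erythroid markers was not tested.

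NOCIAMS_A against NOCIA_B asks what 34 days of stimulation go with in rats without arthritis. All 8 members were above 0, with a median of 0.40, where 59.6% of probe sets were above 0 and their median was 0.088. Nfkb2 was higher by 1.09 ± 0.42 (95% interval 0.17 to 2.01, unadjusted p = 0.024), Nfkbia by 0.87 ± 0.37 (0.051 to 1.69, unadjusted p = 0.0392) and Tnfaip3 by 0.45 ± 0.18 (0.045 to 0.85, unadjusted p = 0.0322), each with an adjusted p of 0.747 in limma. Those 3 of 8 stand against 1144 of 18515 probe sets (6.18%) at that unadjusted p. Nfkbia and Tnfaip3 did not overlap, which held for 9.61% of probe sets in either direction. Tlr2 was at 0.43 ± 0.45 and Myd88 at 0.029 ± 0.18. Leaving out NOCIAMS_A replicate 1 took Nfkb2 to 0.72, and leaving out NOCIA_B replicate 1 took it to 1.42. All 11 platelet markers were below 0 (median -0.69), with a summed signal of 163127 to 184178 in NOCIAMS_A. Monocyte markers were above 0 in 12 of 12 (median 0.40) and neutrophil markers in 7 of 8 (median 0.90), with summed signals of 66135 to 85070 and 31821 to 50591 in NOCIAMS_A against 54727 to 81898 and 15220 to 33830 in NOCIA_B. With the monocyte score as a covariate Nfkb2 was 1.13 ± 0.48, Nfkbia 0.83 ± 0.42 and Tnfaip3 0.43 ± 0.20, and the part of the neutrophil markers was not tested. With the platelet score as a covariate Nfkb2 was 0.53 ± 0.34, Nfkbia 0.39 ± 0.32 and Tnfaip3 0.37 ± 0.19. NK cell markers were below 0 in 8 of 8 (median -0.27) and erythroid markers in 8 of 9 (median -0.75). B cell markers were above 0 in 6 of 6 (median 0.42) and immediate early genes in 11 of 12 (median 0.29). The part of the NK cell, erythroid and B cell markers was not tested. Without the arrays that stood apart, Nfkb1 turned from 0.16 to -0.017.

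MTXMS_A against MS_A asks what methotrexate adds to the needle in arthritic rats. Tlr2 was lower by 1.39 on the log2 scale (-1.39 ± 0.45, 95% interval -2.37 to -0.42, unadjusted p = 0.00909, adjusted p = 0.222 in limma), and all 3 MTXMS_A arrays lay below all 3 MS_A arrays. In the opposite direction stood Nfkb1 at 0.64 ± 0.28 (unadjusted p = 0.044, adjusted p = 0.322), Tnfaip3 at 0.42 ± 0.18 (unadjusted p = 0.0422, adjusted p = 0.32), Nfkb2 at 0.82 ± 0.42 (adjusted p = 0.384) and Rela at 0.52 ± 0.27 (adjusted p = 0.377), all by limma. With Relb and Nfkbia, 6 of 8 members were above 0, against 49.4% of probe sets. The 3 of 8 members under an unadjusted p of 0.05 stand against 14.8% of probe sets, the highest share of the 6 comparisons, and Tlr2 (lower) and Rela (higher) did not overlap, against 22.8% in either direction. Monocyte markers were below 0 in 10 of 12, 4 of them at unadjusted p under 0.05, and their summed signal was 47630 to 79901 in MTXMS_A. NK cell markers were below 0 in 8 of 8 (median -0.87, 5 at unadjusted p under 0.05), with a summed signal of 17559 to 27854 in MTXMS_A and 22572 to 52722 in MS_A. Erythroid markers were below 0 in 9 of 9 (median -1.10), with 2648 to 97105 in MTXMS_A and 44455 to 91377 in MS_A. The part of the NK cell and erythroid markers in the members' values was not tested. With the monocyte score as a covariate the Tlr2 value was -0.68 ± 0.36. Leaving out MTXMS_A replicate 3 moved Tlr2 to -1.81, Nfkb1 to 0.40, Nfkb2 to 0.51 and Nfkbia from 0.55 to 0.14, while leaving out MTXMS_A replicate 1 moved Tlr2 to -0.93 and leaving out MS_A replicate 3 moved Tnfaip3 to 0.27.

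MS_A against NOCIAMS_A compares arthritic with healthy rats that both had 34 days of stimulation. Tlr2 was at 0.93 ± 0.45 (adjusted p = 0.81 in limma) and the 6 subunit and inhibitor genes were below 0, with Nfkb2 at -0.77 ± 0.42, so 2 of 8 members were above 0, against 44.6% of probe sets. Tlr2 (higher) and Tnfaip3 (lower, -0.32 ± 0.18) did not overlap, against 17.9% of probe sets in either direction. No member reached an unadjusted p of 0.05, against 5.68% of probe sets. NK cell markers were above 0 in 8 of 8 (median 0.67, 2 at unadjusted p under 0.05 in limma). Platelet markers were above 0 in 10 of 11 (median 0.72) and monocyte markers in 9 of 12 (median 0.23). With the platelet score as a covariate Nfkb1 was at 0.048, and the part of the NK cell markers was not tested. The difference between the change from CIA_B to MS_A and the change from NOCIA_B to NOCIAMS_A was tested in the same fit. It was above 0 for 2 of 8 members, against 43.7% of probe sets, with Rela at -0.92 ± 0.40 (unadjusted p = 0.0403) and Tnfaip3 at -0.66 ± 0.27 (unadjusted p = 0.0347) the 2 under 0.05, where 13.1% of probe sets were. Nfkb2 had the largest size, -1.37 ± 0.63 (adjusted p = 0.383 in limma). The lowest adjusted p among members was 0.364 in limma, so a difference between arthritic and healthy rats was not shown, and with the platelet score as a covariate the Nfkb2 value was -0.044 ± 0.60.

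At the thresholds of the study's methods, an unadjusted p under 0.05 with a fold over 2, Tlr2 was the 1 member past them in MS_A against CIA_B (3.62% of probe sets) and in MTXMS_A against MS_A (4.5%), and Nfkb2 the 1 member in NOCIAMS_A against NOCIA_B (2.3%). In CIA_B against NOCIA_B (4.68%), MTXMS_A against CIA_B (2.28%), MS_A against NOCIAMS_A (1.87%) and the difference of changes (10.2%), 0 of 8 members passed them.

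**Figure D2:**
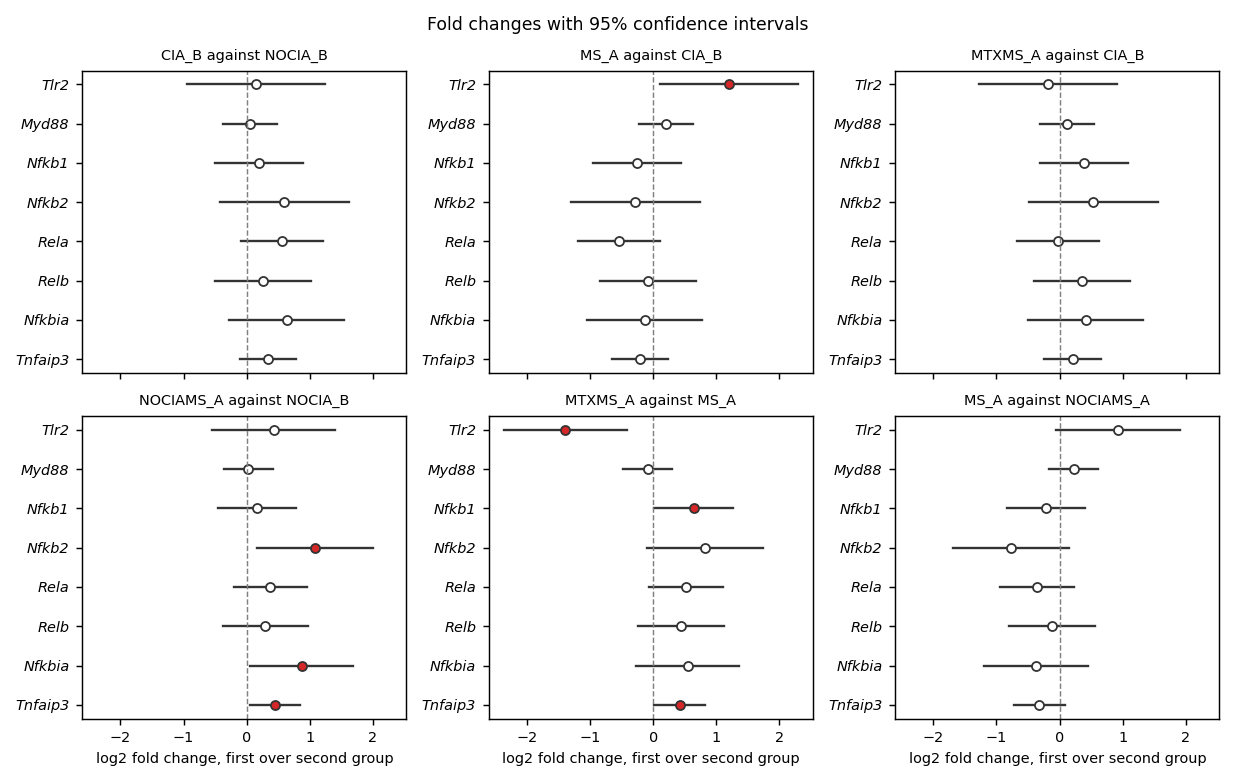
Log2 fold change (x axis, first group over second) of the 8 tested genes in the 6 comparisons; points are limma estimates and lines their 95% confidence intervals. Red points have an unadjusted p under 0.05 and white points do not; none has an adjusted p under 0.05. Tlr2 lies to the right in MS_A against CIA_B and to the left in MTXMS_A against MS_A, where most other points lie to the right.

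The wider pathway was followed through 81 further genes, of which 59 were tested, and 0 of these passed the adjusted p in any comparison in limma. At an unadjusted p under 0.05 there were from 4 genes of 59 (MTXMS_A against CIA_B, where 5.4% of all probe sets passed) to 12 of 59 (MTXMS_A against MS_A, 6 in each direction, where 14.8% did). The receptors and coreceptors ran with Tlr2. In MS_A against CIA_B 8 of 8 were above 0 with a median of 0.82, against -0.0090 over all probe sets, and in MTXMS_A against MS_A 0 of 8 were, with a median of -0.78. Cd180, a Toll-like receptor homologue of B cells and myeloid cells, was of low signal (mean log2 6.66). It was at 1.33 ± 0.55 in the former and -2.37 ± 0.49 in the latter (unadjusted p = 0.000429, adjusted p = 0.184 in limma). Tlr1, which pairs with Tlr2, was at 0.86 ± 0.37 and -0.58 ± 0.33. Tlr8, a sensor of single-stranded RNA, was at 1.00 ± 0.49 and -1.60 ± 0.44, and Ly96, the coreceptor of Tlr4, at 0.63 ± 0.41 and -0.83 ± 0.37. B cell markers moved alongside, with 6 of 6 above 0 in MS_A against CIA_B and 0 of 6 above 0 in MTXMS_A against MS_A. So did monocyte markers, with 10 of 12 and 2 of 12 above 0, and that list shares Cd14 with the receptors and coreceptors. The part of the B cell and monocyte markers in these receptor values was not tested.

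Genes that NF-kB is known to switch on were above 0 in 15 of 19 in MTXMS_A against CIA_B (median 0.69, against 48.1% above 0 and a median of -0.016 over all probe sets) and in 14 of 19 in NOCIAMS_A against NOCIA_B (median 0.66, against 59.6% and 0.088). They were above 0 in 13 of 19 in CIA_B against NOCIA_B and in MTXMS_A against MS_A, in 12 of 19 in MS_A against CIA_B and in 8 of 19 in MS_A against NOCIAMS_A. The chemokine gene Ccl3 was at 0.83 ± 0.33 in MTXMS_A against CIA_B and 1.09 ± 0.30 in NOCIAMS_A against NOCIA_B. Tnfaip2, of low signal (mean log2 6.47), was at 1.81 ± 0.66 in MTXMS_A against CIA_B. Nfkbid, a nuclear IkB protein, was at 0.78 ± 0.31 in MTXMS_A against CIA_B, where 4 of 4 subunit and IkB genes were above 0. Negative regulators were above 0 in 10 of 13 in NOCIAMS_A against NOCIA_B, led by Sarm1 (1.31 ± 0.38), an adaptor that restrains Toll-like receptor signalling, and in 3 of 13 in MS_A against NOCIAMS_A, where the deubiquitinase gene Cyld was at -0.56 ± 0.23. Sod2, the mitochondrial superoxide dismutase and a target gene, was at -1.51 ± 0.44 in CIA_B against NOCIA_B and 1.28 ± 0.44 in MS_A against CIA_B, comparisons that share the CIA_B arrays. Nos2, the inducible nitric oxide synthase gene, was of low signal (mean log2 6.80) and was at -2.19 ± 0.74 in CIA_B against NOCIA_B. Map3k7, the kinase TAK1 that links receptors to the IkB kinases, was at -0.57 ± 0.21 in CIA_B against NOCIA_B and -0.58 ± 0.19 in NOCIAMS_A against NOCIA_B, comparisons that share the NOCIA_B arrays, while its partner Tab3 was at -0.94 ± 0.38 in MS_A against CIA_B. Il1rn, the interleukin-1 receptor antagonist gene, was at -2.67 ± 0.69 in MTXMS_A against MS_A.

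**Figure D3:**
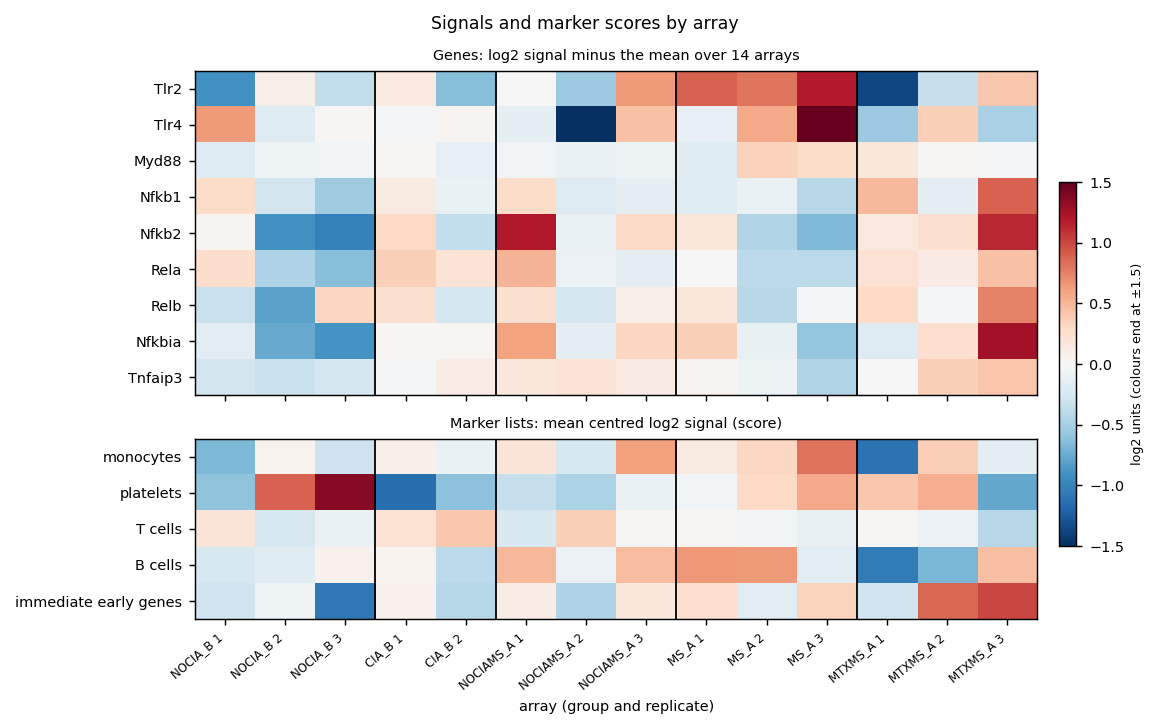
Upper panel, log2 signal of each of the 9 genes minus its mean over the 14 arrays; lower panel, the score of 5 marker gene lists (mean of the genes' centred log2 signals). Columns are arrays in group order with black lines between groups, and colours run from blue (lower) to red (higher) and end at 1.5 log2 units either way. Tlr2 is red on all 3 MS_A arrays, Nfkb2 and Nfkbia are darkest red on MTXMS_A replicate 3 or NOCIAMS_A replicate 1, and NOCIA_B replicate 3 has the highest platelet score and the lowest immediate early score.

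Over the 14 arrays the members fell into a set that varied together and a few that did not. Of 36 pairs of members, 8 had a Pearson correlation with an adjusted permutation p under 0.05 (adjusted over the 36 pairs), and all 8 were among Nfkb1, Nfkb2, Rela, Nfkbia and Tnfaip3. The highest was Nfkb2 with Nfkbia, r = 0.91 (permutation p = 2e-05, adjusted 0.00054) and rho = 0.84 (p = 0.00026, adjusted 0.00468), and r was 0.91 without the 2 farthest arrays and 0.86 after group means were taken out. Nfkb2 with Rela had r = 0.87 (permutation p = 3e-05, adjusted 0.00054) and rho = 0.82 (p = 0.00053, adjusted 0.00636), with r = 0.79 without the farthest arrays and 0.90 within groups. Nfkbia with Tnfaip3, the inhibitors, had r = 0.82 (permutation p = 0.00034, adjusted 0.0036) and rho = 0.78 (p = 0.00158, adjusted 0.0142), with 0.77 without the farthest arrays and 0.67 within groups. Nfkb2 with Tnfaip3, also among the 8, had r = 0.73 over the arrays but 0.37 within groups. Tnfaip3 had r = 0.22 with Rela and 0.11 with Nfkb1 within groups. The permutations ran over all 14 arrays, so differences between group means enter these p-values. The share of such pairs among all probe sets was not counted, and genes outside the members reached higher values (Rela with Milr1, r = 0.97). The arrays share scaling and cell make-up, so these values describe joint variation.

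Against 8 marker gene scores, 2 of 72 relations had an adjusted permutation p under 0.05 by Pearson's r and 0 by Spearman's rho. Tlr2 followed the monocyte score with r = 0.84 (permutation p = 9e-05, adjusted 0.00648) and rho = 0.77 (p = 0.00192, adjusted 0.0756). Without MS_A replicate 3 and MTXMS_A replicate 1, the farthest in monocyte score, r was 0.68, and within groups it was 0.79. Rela ran against the platelet score with r = -0.78 (permutation p = 0.00108, adjusted 0.0389) and rho = -0.76 (p = 0.0021, adjusted 0.0756), with r = -0.67 without the farthest arrays and -0.80 within groups. Nfkb1, Nfkb2 and Nfkbia had r = -0.59, -0.65 and -0.64 with the platelet score (adjusted permutation p of 0.137, 0.096 and 0.096) and -0.82, -0.75 and -0.73 within groups. Tlr2 had r = 0.72 with the B cell score, and Rela and Nfkb2 had r = -0.71 and -0.69 with the NK cell score (adjusted permutation p = 0.0882 each). Nfkb1 and Nfkbia had r = -0.71 and -0.68 with the erythroid score (adjusted permutation p of 0.093 and 0.096), and 0.059 and 0.19 without MTXMS_A replicate 3 and NOCIA_B replicate 3, so those relations rest on these arrays. Nfkbia had r = 0.69 with the score of immediate early genes, which rise with handling of cells (permutation p = 0.00735, adjusted 0.0882), and r = 0.29 without MTXMS_A replicate 3 and NOCIA_B replicate 3, so that relation rests on those arrays. Tlr2 had r = 0.45 (permutation p = 0.109, adjusted 0.313) and rho = 0.66 (p = 0.013, adjusted 0.117) with the immediate early score. Without the same arrays its r was 0.46, and within groups it was 0.75.

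**Figure D4:**
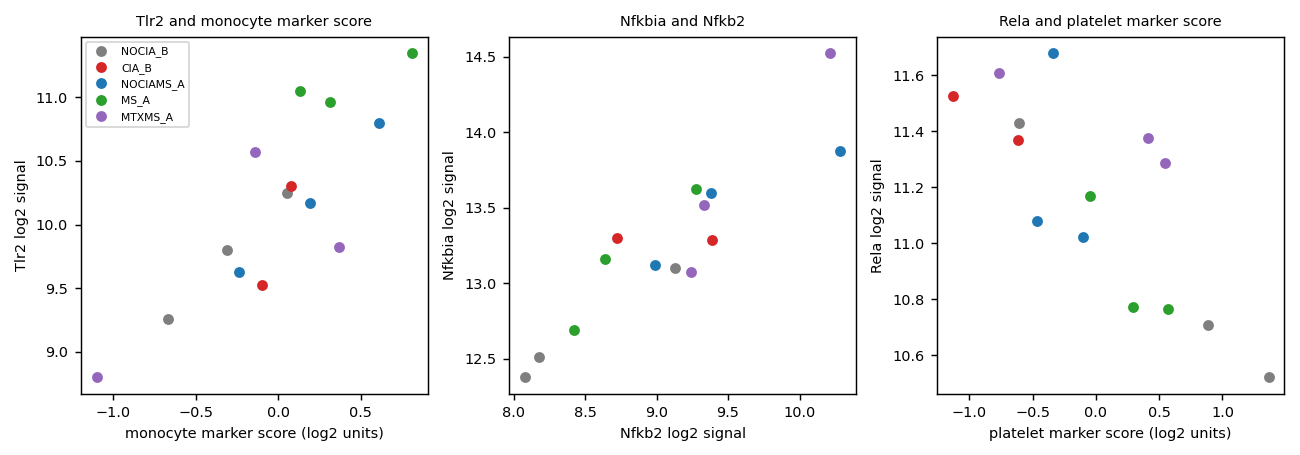
Each point is 1 of the 14 arrays, coloured by group. Left, Tlr2 log2 signal against the monocyte marker score (r = 0.84); middle, Nfkbia against Nfkb2 log2 signal (r = 0.91); right, Rela log2 signal against the platelet marker score (r = -0.78).

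The genes whose signal was most like a member's over the 14 arrays were ranked by Pearson's r, as a description with no test. They came from 9744 probe sets with 1 symbol (9745 for Tlr4). Tlr2 was nearest to Rnf13 (0.92), Ctps2 (0.92) and Ly96 (0.92), the last the coreceptor of Tlr4. Nfkb2 was nearest to Birc3 (0.95), Irak3 (0.94) and Cd40 (0.93), and Nfkbia to Irak3 (0.93), Nfkb2 (0.91) and Birc3 (0.89). Birc3 encodes a ubiquitin ligase of the same signalling complexes, Irak3 an inhibitory kinase of Toll-like receptors, and Cd40 a receptor of B cells and monocytes that signals to NF-kB. Nfkb1 was nearest to Kdm2b (0.96) and Rela to Milr1 (0.97), and Tnfaip3 to Ccl3 (0.84). The best values were 0.86 for Relb (Phf20), 0.83 for Tlr4 (Cbl) and 0.80 for Myd88 (Psat1).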

How the data were processed

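Total RNA of PBMC was hybridised to Affymetrix rat230 2.0 arrays, after extraction in 1 batch per the labels. The deposited values are MAS5 signal intensity on a linear scale, which the authors computed with affy (version not given in the sources used here), and each array's trimmed mean, leaving out 2% of probe sets at either end, is 500. Here they were taken as log2 without a pseudocount. Probe sets were named through the platform annotation: 20826 carried 1 symbol, 436 several and 9780 none, and none of the 20764 whose gene ID is in the RefSeq table had another symbol there. The 57 control rows were left out. Probe sets above their array's median on at least 2 of 14 arrays were kept (18515). A linear model with a mean for each group was fitted to them (limma 3.58.1, R 4.3.3), with empirical Bayes moderation and Benjamini-Hochberg adjustment over all of them. The fit was tested on simulated data. The number of arrays limits the precision. Groups are those of the sample titles, and the 6 comparisons and 1 difference of comparisons came from 1 fit. Confidence intervals are at 95%. Correlations used 100000 permutations of the arrays, across all groups. A marker score is the mean of the list's centred log2 signals.

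The members, the 81 pathway genes and the marker lists were chosen with earlier results of these data known. Genes named beside the members were the 3 of the pathway list with the lowest unadjusted p in each comparison and, from 9744 genes, the 3 with the most similar signal to each member. The alternatives changed the scaling, pseudocount, filter, arrays in the fit, weights, moderation, thresholds, block and covariates. The immediate early score as a covariate and the fit without the arrays that stood apart were chosen after seeing the data. Promoter windows are those of RefSeq on GRCr8, and a window of Relb was not used here.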

Additional observations from a re-analysis of the deposited data

How the results depend on the processing

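No member was called under any alternative except the thresholds of the study's methods (unadjusted p under 0.05 and fold over 2), which called 1 in MS_A against CIA_B (Tlr2), 1 in NOCIAMS_A against NOCIA_B (Nfkb2) and 1 in MTXMS_A against MS_A (Tlr2). Over all probe sets those thresholds called 866, 670, 423, 426, 833 and 347 in the 6 comparisons in the order of the report, and 1886 in the difference, against 0 throughout by adjusted p. Array weights called 765 in CIA_B against NOCIA_B, 1 in NOCIAMS_A against NOCIA_B, 2 in MTXMS_A against MS_A and 1651 in the difference. In MS_A against CIA_B, 1 was called without a filter, 1 with the groups compared alone and 1 with the immediate early score as a covariate, which also called 3 in MTXMS_A against CIA_B and 1 in MTXMS_A against MS_A. Keeping means above the 60th percentile called 1 in MTXMS_A against MS_A and 1 in MS_A against NOCIAMS_A, and no moderation called 5 and 1 there. Leaving out arrays gave 0 to 168, 0 to 4, 0 to 13, 0 to 4, 0 to 1 and 0 to 0 calls in the 6 comparisons and 0 to 980 in the difference; the highest counts in CIA_B against NOCIA_B and in the difference came without NOCIA_B replicate 1. Members called stayed at 0. The cause was not tested.

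Of 728 member fold changes under the alternatives that leave out no single array, 703 kept their sign, and 4 of the 25 that turned had exceeded their SE. With the platelet score as a covariate, CIA_B against NOCIA_B turned for Nfkb1 (-0.45), Nfkb2 (-0.35), Rela (-0.010) and Nfkbia (-0.17), MS_A against CIA_B for Nfkb1 (0.27), Nfkb2 (0.48), Relb (0.020) and Nfkbia (0.51), MTXMS_A against CIA_B for Rela (0.35), NOCIAMS_A against NOCIA_B for Nfkb1 (-0.23), MS_A against NOCIAMS_A for Nfkb1 (0.048), and the difference for Myd88 (-0.033), Nfkb1 (0.50) and Nfkbia (0.12). Tlr2 turned with the monocyte score in CIA_B against NOCIA_B (-0.15), MTXMS_A against CIA_B (0.093) and NOCIAMS_A against NOCIA_B (-0.067), and in CIA_B against NOCIA_B with array weights (-0.20) and the immediate early score (-0.13), which also turned Nfkbia in MTXMS_A against CIA_B (-0.0016). Quantile normalization turned Myd88 in CIA_B against NOCIA_B (-0.0081) and Rela in MTXMS_A against CIA_B (0.0011), median centring turned Myd88 in MTXMS_A against CIA_B (-0.030), and leaving out the arrays that stood apart turned Nfkb1 in NOCIAMS_A against NOCIA_B (-0.017).

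Replicate numbers did not pair the arrays: deviations of same-numbered arrays had a median correlation of 0.055 (26 pairs) against -0.044 (52 others). With the replicate block no probe set and 0 members were called, and Rela in MTXMS_A against CIA_B turned to 0.046.

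Leaving out 1 array turned 18 of 784 values, none of which had exceeded its SE. Their ranges were in CIA_B against NOCIA_B -0.24 to 0.54 (Tlr2), -0.027 to 0.12 (Myd88), -0.0075 to 0.55 (Relb), and in NOCIAMS_A against NOCIA_B -0.019 to 0.060 (Myd88), -0.017 to 0.38 (Nfkb1), and in MS_A against CIA_B -0.61 to 0.052 (Nfkb2), -0.33 to 0.17 (Relb), -0.37 to 0.099 (Nfkbia), and in MTXMS_A against CIA_B -0.61 to 0.28 (Tlr2), -0.12 to 0.057 (Rela), and in MTXMS_A against MS_A -0.25 to 0.013 (Myd88), and in MS_A against NOCIAMS_A -0.26 to 0.045 (Relb). Without 1 of the 2 CIA_B arrays, the other is assumed to vary like the other groups.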
